A study of Mus musculus with 15 samples.

Results

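The DNA replication genes described here are 39 genes that were taken by their symbols from the 24411 gene symbols in the count files. They cover origin licensing (10 genes), helicase activation (4), primase and polymerases (6), the sliding clamp, its loader and single-strand binding (6), lagging-strand joining (2), nucleotide supply (4), the E2F factors with cyclin E (4) and chromatin behind the fork (3). Fresh frozen liver from FVB/NJ mice, all male, gave 15 polyA libraries, 3 in each of 5 groups. The group WT was wild-type tissue, the triple model carried S45Y-CTNNB1, G31A-NFE2L2 and hMET, and the other models each carried a pair of these. They are called here β-catenin/MET (S45Y-CTNNB1 and hMET), β-catenin/NRF2 (S45Y-CTNNB1 and G31A-NFE2L2) and NRF2/MET (G31A-NFE2L2 and hMET). S45Y is a change at a phosphorylation site that marks β-catenin for degradation, G31A lies in the part of NRF2 that KEAP1 binds, and hMET is the human receptor of hepatocyte growth factor. The labels give no age, time after delivery, vector, promoter or share of tumour in the tissue, and they do not say whether the libraries came from separate animals, so p-values measure the spread between these libraries.

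A cell copies its genome once per division. The origin recognition complex, Cdc6 and Cdt1 load the ring of Mcm2 to Mcm7 onto origins, Cdc45 and the GINS complex turn that ring into a moving helicase, and polymerase α with primase, polymerase δ and polymerase ε copy the strands while Pcna clamps them to the template. The genes for these proteins are classical targets of E2F factors and are low in the resting hepatocytes of adult liver.

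Gene counts per library summed to 14084343 to 20702618. Levels are given as CPM (counts scaled to the TMM-adjusted library total), with the standard deviation over n = 3 libraries after ±, and changes are log2 fold changes ± standard error from edgeR's quasi-likelihood test, adjusted over 14098 genes with a threshold of 0.05. All 39 genes passed the filter on low counts, but Cdc6, Orc1, Gins2 and Ccne2 would not have passed it in WT alone, where their counts over 3 libraries summed to 14, 7, 29 and 36. The share of unmapped reads was 19.8 to 25.9% in WT, 15.8 to 19.1% in β-catenin/MET, 12.7 to 14.2% in NRF2/MET, 9.71 to 11.8% in β-catenin/NRF2 and 8.69 to 11.3% in the triple model, and its part in the results was not tested. Counts at mouse Ctnnb1 were higher than WT in all 4 models, by 0.72 ± 0.11 (adjusted p = 9.31e-05) in the triple model, 0.46 ± 0.11 (adjusted p = 0.00363) in β-catenin/NRF2, 0.35 ± 0.11 (adjusted p = 0.0455) in β-catenin/MET and 0.33 ± 0.11 (adjusted p = 0.0483) in NRF2/MET, which carries no introduced CTNNB1. Nfe2l2 was called in no model against WT (largest difference 0.46 ± 0.20, adjusted p = 0.0682), and Met in no comparison, with log2 differences between -0.29 and 0.25. These counts do not check the labels. Of the hepatocyte markers, 5 of 6 were lower than WT in the triple model and in β-catenin/NRF2. In β-catenin/MET and NRF2/MET 2 of 6 were higher and 0 lower, with median log2 fold changes of -0.17 and -0.08. The summed level of all 6, in which the most abundant genes weigh most, was 68953.2 to 95531.8 CPM in WT. It was 61775.7 to 67141.0 in the triple model and 23586.5 to 32252.8 in β-catenin/NRF2. In β-catenin/MET it was 122149.4 to 131895.1, and in NRF2/MET 127702.6 to 171543.6. No hepatocyte marker was at 0 in any group.

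Replication genes were higher than in WT in all 4 models, in most of the 39 genes where mutant β-catenin was present and in fewer where it was not. In the triple model 37 of 39 rose and 1 fell, with a median log2 fold change of 1.35, against 26.5% of all tested genes higher and 23.4% lower. In β-catenin/NRF2 33 rose and 2 fell (median 1.22), against 24.5% higher and 24.2% lower among all genes. In β-catenin/MET 26 rose and 0 fell (median 0.85), against 11.0% and 6.22%, and in NRF2/MET 16 rose and 2 fell (median 0.42), against 13.5% and 9.89%. The median over all tested genes was within 0.02 of 0 in each of these comparisons. In liver samples, more replicating cells and more RNA per cell cannot be told apart. The 4 models share the same 3 WT libraries.

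The β-catenin/MET count rested most on single libraries: without its replicate 1 it was 14. At an unadjusted p under 0.05, 32 genes were higher and 1 lower in that comparison, and DESeq2 called 25 higher and 0 lower. Whichever of the 15 libraries was left out, 33 of the 37 genes stayed higher in the triple model, 32 of 33 in β-catenin/NRF2, 13 of 26 in β-catenin/MET and 13 of 16 in NRF2/MET.

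**Figure D1:**
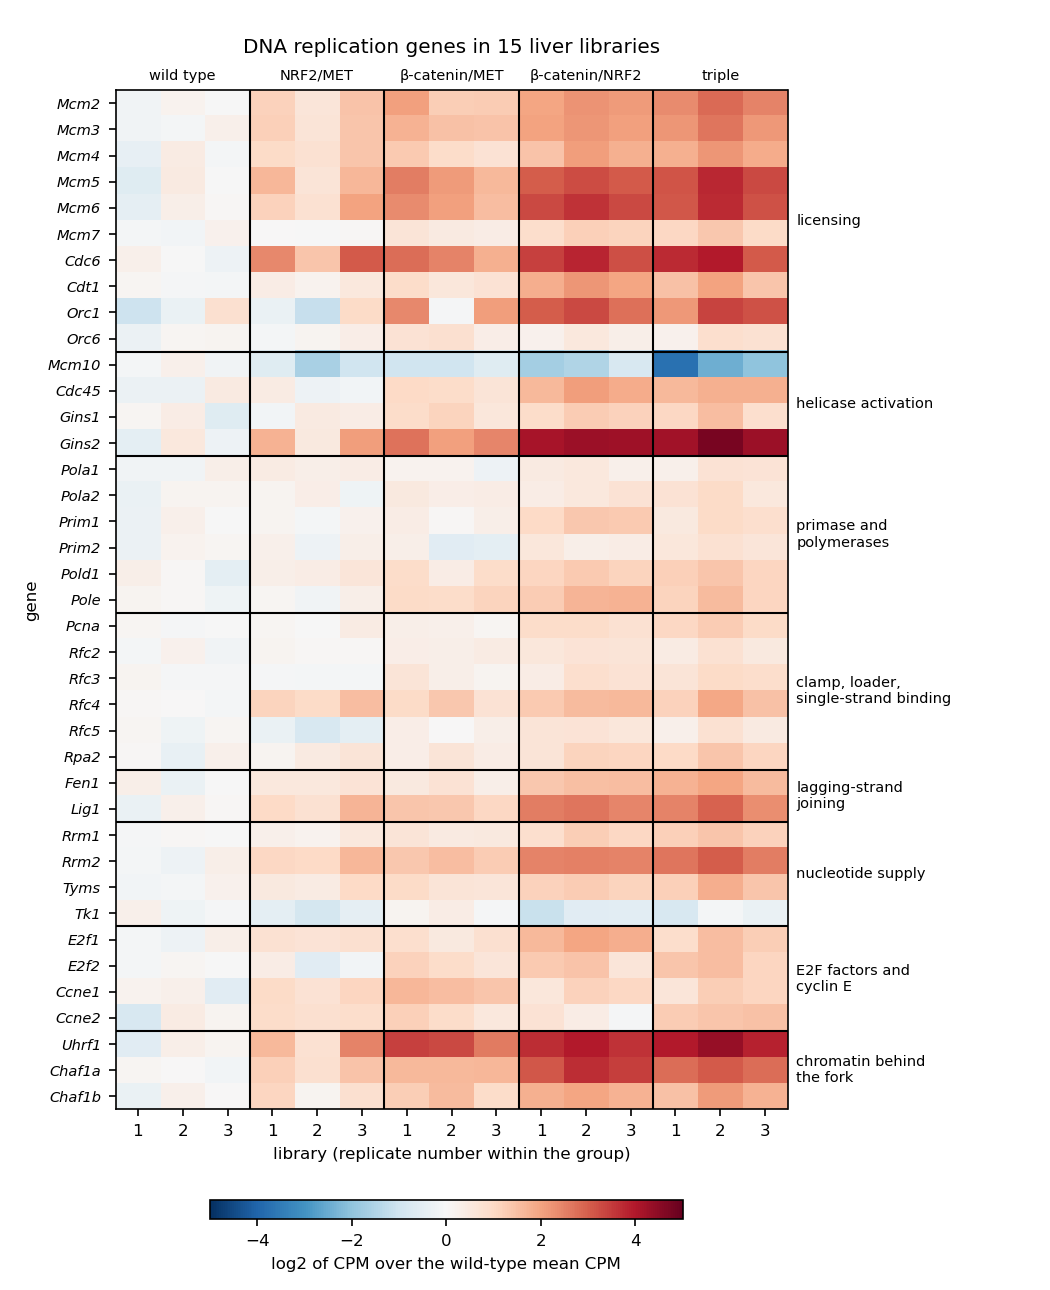
Colour gives the log2 of each library's CPM over the mean CPM of the 3 wild-type libraries, for 39 genes in rows (blocks by role) and 15 libraries in columns (5 groups of 3). In most rows the triple and β-catenin/NRF2 libraries are redder than those of NRF2/MET. Mcm10 is blue in all 12 model libraries, and replicate 2 of the triple model is the reddest library of its group.

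The group means followed the same order in many genes. WT had the lowest mean for 33 of 39 genes, the triple model the highest for 25 and β-catenin/NRF2 for 11. For 15 genes the order was triple, β-catenin/NRF2, β-catenin/MET, NRF2/MET and WT, and for a further 9 the first 2 were exchanged. Neighbours at the top of that order differed little, as given below for the direct comparison. Compared with WT, 16 genes rose in 4 models: Mcm2, Mcm3, Mcm4, Mcm5, Mcm6, Cdc6, Gins2, Rfc4, Lig1, Fen1, Rrm2, Tyms, E2f1, Ccne1, Uhrf1 and Chaf1a. Among these, the calls of Mcm4, Rfc4, Fen1, Tyms and E2f1 in β-catenin/MET and of Gins2, Fen1 and Tyms in NRF2/MET were lost in at least 1 fit that left out a library. Cdc6 and Gins2 would not have passed the filter on low counts in WT alone. Another 10 rose in 3 models, 7 in 2 and 4 in 1. Only Mcm10 and Tk1 were higher in none. The shares of all tested genes with these orders, or higher in that many models, were not counted, so these counts have no background beside them.

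**Figure D2:**
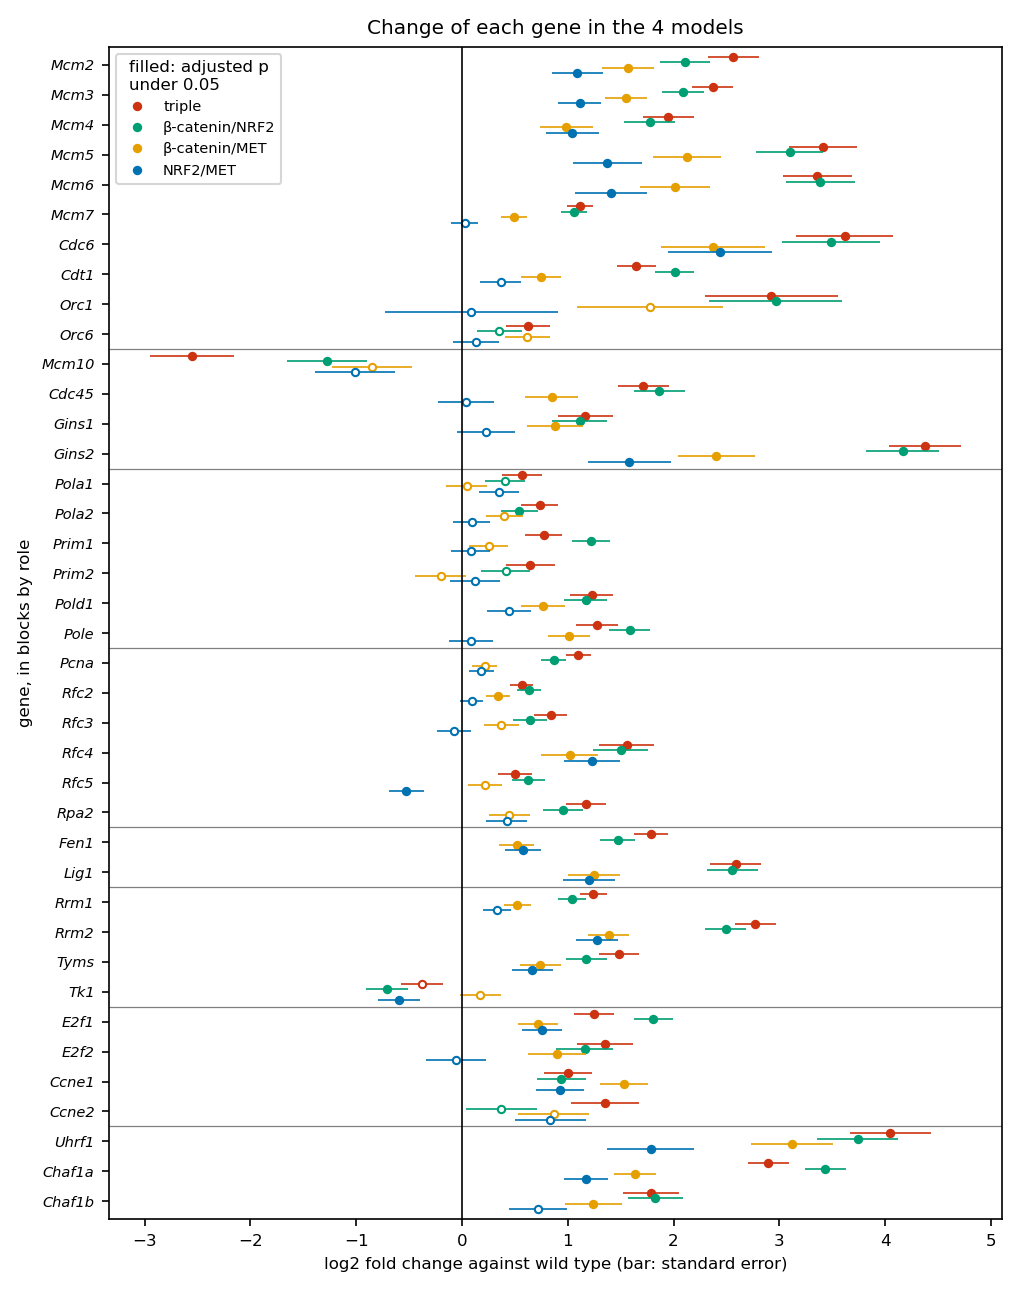
Points are log2 fold changes against wild type with standard errors, 1 colour per model, filled where the adjusted p was under 0.05. The triple and β-catenin/NRF2 points lie furthest right in most rows, the licensing and chromatin blocks reach beyond 3, the primase and polymerase block reaches 1.58, and Mcm10 lies left of 0 in all models.

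The libraries of a group differed from each other in a shared way. Replicate 2 was the highest of the triple model for 37 of 39 genes and the highest of β-catenin/NRF2 for 31, replicate 1 was the highest of β-catenin/MET for 25, and replicate 2 was the lowest of NRF2/MET for 32. How often these libraries were highest or lowest over all tested genes was not counted. Of the macrophage and Kupffer cell markers, 8 of 8 rose against WT in the triple model, β-catenin/NRF2 and NRF2/MET and 5 of 8 in β-catenin/MET. Their summed level was 545.5 CPM in replicate 2 of the triple model against 792.9 and 785.7 in the others, and 542.1 CPM in replicate 2 of β-catenin/NRF2 against 747.6 and 598.4. In β-catenin/MET it was 429.9, 430.1 and 349.2 CPM, lowest in replicate 3, which was also the lowest for 23 of the 39 genes. In NRF2/MET it was 498, 567.0 and 475.4 CPM, and in WT 244.8 to 281.4. B and plasma cell markers, of which 4 of 6 rose in the triple model and in β-catenin/MET, 1 in β-catenin/NRF2 and 2 in NRF2/MET, were highest in the same libraries as most replication genes in the triple model and in β-catenin/MET. They summed to 6.35, 16.8 and 13.9 CPM in the triple model and 18.9, 9.64 and 14.67 in β-catenin/MET, against 2.05 to 3.80 in WT, 3.67 to 4.11 in β-catenin/NRF2 and 8.48 to 11.7 in NRF2/MET. T and NK cell markers summed to 2.12 to 3.60 CPM in WT, 8.27 to 9.83 in the triple model, 5.67 to 8.89 in β-catenin/MET, 4.11 to 5.94 in β-catenin/NRF2 and 3.19 to 3.84 in NRF2/MET, with 5, 3, 1 and 0 of 6 tested markers higher than WT. No marker of these lists in the files was at 0 in any group, whereas the globin genes Hba-a1, Hbb-bs and Hbb-bt were at 0 in all. Neutrophil markers summed to 25.0 CPM in replicate 2 of NRF2/MET, against 10.02 and 7.56 in its other libraries. The part of other cell types in the replication results was not tested.

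The promoters of some members carry an E2F-type motif. RefSeq windows of GRCm38.p6, from 250 bases before to 50 after a start site, were matched for 32 of the 39 genes. The letters TTTCCCGC, TTTGGCGC, TTTCGCGC or TTTGCCGC, searched on both strands, were in a window of 13 of these 32 genes (40.6%) and of 704 of 27025 genes with a window (2.6%). CCAAT was found for 59.4% of the members and 41.1% of all genes, and GGGCGG for 75.0% and 38.2%. Below are the 200 bases before the start site, on the gene's own strand and 5′ to 3′, of 4 genes: Mcm6 and Mcm5, the ring subunits that rose most in the triple model, Pola1, which rose least of the genes with a match, and Mcm10, which fell. Capitals mark E2F-type matches, and overlapping matches on the 2 strands form 1 run.
Mcm6, minus strand, chr1:128359706-128359905: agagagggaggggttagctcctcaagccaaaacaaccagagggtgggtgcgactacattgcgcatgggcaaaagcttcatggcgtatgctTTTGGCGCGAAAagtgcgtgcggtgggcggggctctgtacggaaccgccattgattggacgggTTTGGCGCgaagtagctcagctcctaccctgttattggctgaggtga
Mcm5, plus strand, chr8:75109309-75109508: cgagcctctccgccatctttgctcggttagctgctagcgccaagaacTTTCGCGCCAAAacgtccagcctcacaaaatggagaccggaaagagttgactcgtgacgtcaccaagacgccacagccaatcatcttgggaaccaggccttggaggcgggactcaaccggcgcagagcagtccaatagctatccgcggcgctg
Pola1, minus strand, chrX:93632156-93632355: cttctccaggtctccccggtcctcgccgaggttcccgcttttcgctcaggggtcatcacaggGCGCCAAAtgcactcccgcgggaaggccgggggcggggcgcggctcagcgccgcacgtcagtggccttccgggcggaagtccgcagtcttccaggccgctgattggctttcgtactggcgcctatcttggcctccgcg
Mcm10, minus strand, chr2:5012792-5012991: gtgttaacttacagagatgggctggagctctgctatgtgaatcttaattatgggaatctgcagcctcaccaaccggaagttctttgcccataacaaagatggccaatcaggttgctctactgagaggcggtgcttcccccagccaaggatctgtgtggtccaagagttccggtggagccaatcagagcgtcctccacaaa
The Mcm6 stretch holds 3 matches, the first starting 110 and the last 47 bases before the start site, and the Mcm5 stretch holds 2, at 153 and 149 bases. The Pola1 stretch holds 1, at 138 bases, and the Mcm10 stretch holds none of these letters. In the triple model the 13 genes with a match had a median log2 fold change of 2.37 (range 0.57 to 4.05), and the 19 without had 1.24 (range -2.55 to 2.89). In NRF2/MET the medians were 0.45 and 0.42. These are descriptions of letters and of changes, and binding was not measured.

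Licensing genes rose in all 4 models. In the triple model 10 of 10 rose (median log2 fold change 2.47), in β-catenin/NRF2 9 (2.10), in β-catenin/MET 8 (1.56) and in NRF2/MET 6 of 10 (1.07). All tested genes rose in shares of 26.5, 24.5, 11.0 and 13.5% in that order of models. Mcm6, a subunit of the helicase ring, had 1.80, 2.97 and 2.57 CPM in the WT libraries and 21.2, 32.5 and 22.3 in the triple model. It had 24.1, 29.6 and 23.9 CPM in β-catenin/NRF2, 12.6, 10.2 and 7.15 in β-catenin/MET and 5.48, 4.13 and 9.91 in NRF2/MET. All 12 model libraries lay above the 3 WT libraries, and the libraries of β-catenin/NRF2 and the triple model overlapped. Mcm6 was higher than WT by 3.36 ± 0.32 (adjusted p = 1.70e-06) in the triple model, 3.39 ± 0.32 (adjusted p = 1.67e-06) in β-catenin/NRF2, 2.01 ± 0.33 (adjusted p = 0.000957) in β-catenin/MET and 1.41 ± 0.34 (adjusted p = 0.00908) in NRF2/MET.

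Mcm5, another subunit of the ring, had 1.87, 3.86 and 2.82 CPM in WT, 25.3, 38.5 and 28.4 in the triple model, 23.0, 27.1 and 24.0 in β-catenin/NRF2, 16.8, 12.4 and 8.77 in β-catenin/MET and 8.96, 4.46 and 8.94 in NRF2/MET. The model libraries again lay above WT, and replicate 2 of NRF2/MET came nearest to it. The rise was 3.41 ± 0.32 (adjusted p = 1.38e-06) in the triple model and 1.38 ± 0.33 (adjusted p = 0.00911) in NRF2/MET. Mcm2, Mcm3 and Mcm4 rose in all 4 models too, by 2.57, 2.37 and 1.95 in the triple model and by 1.09, 1.11 and 1.04 in NRF2/MET. The call of Mcm4 in β-catenin/MET was lost without WT replicate 1 (adjusted p = 0.0581) or β-catenin/MET replicate 1 (0.074).

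Mcm7 was the exception in the ring. It had 16.4, 15.6 and 20.01 CPM in WT, 35.1, 43.6 and 34.1 in the triple model, 31.8, 39.4 and 37.1 in β-catenin/NRF2, 26.8, 23.9 and 22.4 in β-catenin/MET and 17.5, 17.2 and 18.3 in NRF2/MET. The NRF2/MET libraries lay among those of WT, with a difference of 0.03 ± 0.13 (adjusted p = 0.907), while the other 3 models lay above both. It rose by 1.12 ± 0.13 (adjusted p = 3.90e-06) in the triple model and 1.06 ± 0.13 (adjusted p = 7.27e-06) in β-catenin/NRF2. The smaller rise in β-catenin/MET, 0.49 ± 0.13 (adjusted p = 0.015), missed the threshold without WT replicate 1 (adjusted p = 0.0525), WT replicate 2 (0.0687) or β-catenin/MET replicate 1 (0.0765).

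Per kilobase of exon, Mcm7 lay further above the lowest of the 6 ring subunits in WT than in the models. The other subunits ran from 0.558 (Mcm6) to 1.56 (Mcm2) CPM per kb in WT. In the triple model they ran from 3.73 (Mcm4) to 9.25 (Mcm2), so the wide ratio in WT rested on Mcm7. In WT, Mcm7 was at 5.85 CPM per kb and Mcm6 at 0.558, a ratio of 10.5 (13.5, 7.77 and 11.5 in the 3 libraries). In the triple model the highest was Mcm7 at 12.7 and the lowest Mcm4 at 3.73, a ratio of 3.40 (3.66, 3.30 and 3.31). The ratio of the highest to the lowest mean was 3.69 in β-catenin/NRF2, 4.30 in β-catenin/MET and 4.01 in NRF2/MET, where the libraries gave 4.72, 6.15 and 2.72. Exons of Mcm7 share 385 of 2962 bases with Cops6 and Ap4m1 on the other strand, but its strand columns together held 7255 counts and the unstranded column 7253.

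**Figure D3:**
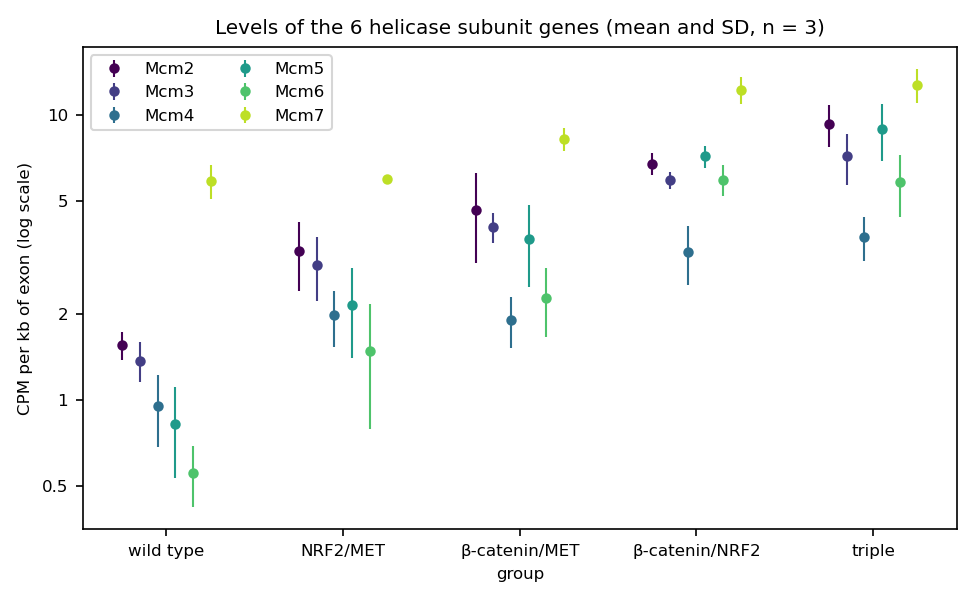
Mean CPM per kb of exon (log axis) of Mcm2 to Mcm7 in each group, with the standard deviation over 3 libraries. The spread from Mcm7 to the lowest subunit is 10.5-fold in wild type and 3.40-fold in the triple model.

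Cdc6 and Orc1, which load the ring, were close to the detection limit in WT. Cdc6 had 0.359, 0.297 and 0.257 CPM in WT, 4.04, 4.81 and 2.53 in the triple model, 3.29, 4.29 and 2.83 in β-catenin/NRF2, 2.08, 1.70 and 1.04 in β-catenin/MET and 1.59, 0.798 and 2.58 in NRF2/MET. No model library overlapped WT. The change was 3.62 ± 0.46 (adjusted p = 1.24e-05) in the triple model and 2.44 ± 0.49 (adjusted p = 0.00237) in NRF2/MET, and both rest on 14 WT counts in all.

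Orc1, the largest subunit of the origin recognition complex, had 0.0719, 0.119 and 0.257 CPM in WT, 0.666, 1.54 and 1.36 in the triple model, 1.21, 1.46 and 1.00 in β-catenin/NRF2, 0.797, 0.142 and 0.626 in β-catenin/MET and 0.118, 0.0665 and 0.286 in NRF2/MET. The triple and β-catenin/NRF2 libraries lay above all of WT, and the libraries of β-catenin/MET and NRF2/MET overlapped WT. It rose by 2.93 ± 0.63 (adjusted p = 0.00117) in the triple model and 2.97 ± 0.63 (adjusted p = 0.00116) in β-catenin/NRF2, and the difference was 0.09 ± 0.82 (adjusted p = 0.953) in NRF2/MET. Cdt1, the other loading factor, rose by 1.65 ± 0.18 (adjusted p = 3.48e-06) in the triple model and 2.01 ± 0.18 (adjusted p = 4.76e-07) in β-catenin/NRF2. Orc6, a small subunit of the complex, had the smallest change of the licensing genes in the triple model. Its rise in the triple model, 0.63 ± 0.21 (adjusted p = 0.0215), missed the threshold without WT replicate 1 (adjusted p = 0.0879), triple replicate 2 (0.0933) or triple replicate 3 (0.0673).

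Helicase activation held both the largest rise and the largest fall. Gins2, a subunit of the GINS complex, had 0.431, 0.890 and 0.513 CPM in WT, 11.1, 16.2 and 11.9 in the triple model, 10.6, 11.8 and 11.5 in β-catenin/NRF2, 4.05, 2.55 and 3.34 in β-catenin/MET and 2.06, 0.865 and 2.63 in NRF2/MET. Replicate 2 of NRF2/MET overlapped WT, and the other 11 model libraries lay above it. Gins2 rose by 4.38 ± 0.34 (adjusted p = 1.07e-07) in the triple model, a 20.8-fold change, by 4.17 ± 0.35 (adjusted p = 1.70e-07) in β-catenin/NRF2 and by 2.41 ± 0.37 (adjusted p = 0.000378) in β-catenin/MET. The rise in NRF2/MET, 1.58 ± 0.39 (adjusted p = 0.0091), missed the threshold without its replicate 3 (adjusted p = 0.0538). Gins2 shares 2758 of its 3900 exon bases with Gse1 on the other strand. Its counts summed over the strand columns were 1.19 times the unstranded count, and with a single strand column the rise in the triple model had an adjusted p of 4.03e-08. The strand columns held equal shares of the reads, so a single column cannot separate Gins2 from Gse1 where they overlap.

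Gins1, its partner subunit, changed less, by 1.17 ± 0.26 (adjusted p = 0.00167) in the triple model and 0.23 ± 0.27 (adjusted p = 0.58) in NRF2/MET. Cdc45, the helicase cofactor, rose by 1.72 ± 0.24 (adjusted p = 3.22e-05) in the triple model and 1.87 ± 0.24 (adjusted p = 1.61e-05) in β-catenin/NRF2, and its difference in NRF2/MET was 0.04 ± 0.26 (adjusted p = 0.931).

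Mcm10, which helps the assembled helicase to start, went the other way. It had 178, 226 and 167 CPM in WT, 95.4, 96.7 and 124 in β-catenin/MET, 125, 62.5 and 95.5 in NRF2/MET, 58.2, 66.8 and 110.3 in β-catenin/NRF2 and 14.5, 35.3 and 47.3 in the triple model. All 12 model libraries lay below the 3 WT libraries, and the 3 triple libraries lay below the other 9. In WT it was the highest of the 39 genes per length, at 38.4 CPM per kb against 26.5 for Tk1 and 18.3 for Pcna. It fell by 2.55 ± 0.40 on the log2 scale in the triple model (adjusted p = 0.000205) and was lower there than in NRF2/MET (-1.54 ± 0.39, adjusted p = 0.00981) and β-catenin/MET (-1.70 ± 0.39, adjusted p = 0.00517). The fall in β-catenin/NRF2, -1.28 ± 0.38 (adjusted p = 0.0149), missed the threshold without WT replicate 2 (adjusted p = 0.0539), β-catenin/NRF2 replicate 1 (0.0591) or its replicate 2 (0.0583). Over all libraries the strand columns together held 25364 counts and the unstranded column 25363. No exon of a protein-coding gene on the opposite strand overlaps it in the annotation, and other gene types were not checked.

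**Figure D4:**
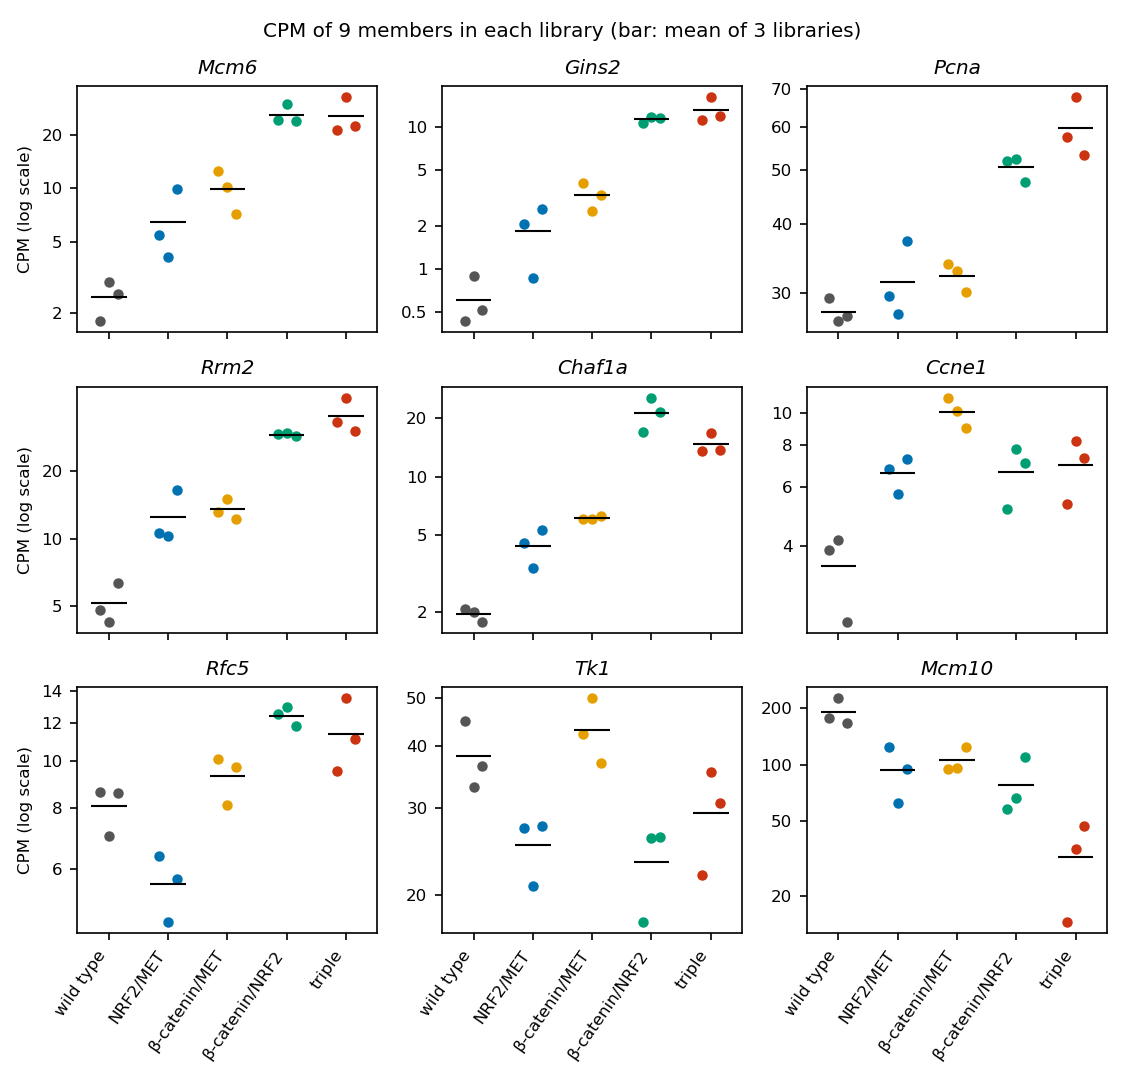
Each point is the CPM (log axis) of 1 library, in 5 groups of 3, for 9 genes, and the bar is the group mean. Mcm6, Gins2, Rrm2 and Chaf1a climb from wild type to the models with mutant β-catenin and NRF2, Ccne1 is highest in β-catenin/MET, Rfc5 and Tk1 cross the wild-type level, and Mcm10 falls to 14.5 to 47.3 CPM in the triple model.

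Primase and polymerase genes had smaller medians than the licensing genes. In the triple model 6 of 6 rose, with a median log2 fold change of 0.75. In β-catenin/NRF2 4 rose (0.86), in β-catenin/MET 2 (0.32) and in NRF2/MET 0 (0.11), where 1 of 6 was higher at an unadjusted p under 0.05 and DESeq2 called 0. From the triple model to NRF2/MET in this order, 26.5, 24.5, 11.0 and 13.5% of all tested genes rose. Pole, the catalytic subunit of polymerase ε, had 3.45, 3.20 and 2.69 CPM in WT, 6.76, 9.28 and 6.62 in the triple model, 7.54, 10.1 and 10.4 in β-catenin/NRF2, 6.13, 5.95 and 6.74 in β-catenin/MET and 3.30, 2.73 and 3.84 in NRF2/MET. All 9 libraries with mutant β-catenin lay above the 6 without it. It rose by 1.28 ± 0.19 (adjusted p = 6.80e-05), 1.58 ± 0.19 (adjusted p = 9.68e-06) and 1.01 ± 0.20 (adjusted p = 0.00264) in these 3 models, and the difference in NRF2/MET was 0.08 ± 0.21 (adjusted p = 0.803).

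Prim1, the catalytic primase subunit, had 3.60, 5.28 and 4.43 CPM in WT, 6.30, 8.51 and 7.98 in the triple model, 8.94, 11.3 and 10.9 in β-catenin/NRF2, 5.70, 4.68 and 5.48 in β-catenin/MET and 4.83, 4.13 and 5.16 in NRF2/MET. The β-catenin/NRF2 libraries were the highest, and those of NRF2/MET and β-catenin/MET overlapped WT. It rose by 1.22 ± 0.18 (adjusted p = 4.99e-05) in β-catenin/NRF2 and 0.77 ± 0.18 (adjusted p = 0.00208) in the triple model. Pold1, the catalytic subunit of polymerase δ, rose by 1.23 ± 0.20 (adjusted p = 0.000141) in the triple model and 1.17 ± 0.20 (adjusted p = 0.000243) in β-catenin/NRF2. Pola2, the accessory subunit of polymerase α, rose by 0.73 ± 0.17 (adjusted p = 0.00236) in the triple model. Its rise in β-catenin/NRF2, 0.54 ± 0.17 (adjusted p = 0.0173), missed the threshold without WT replicate 1 (adjusted p = 0.0805) or β-catenin/NRF2 replicate 3 (0.0715). Pola1, the catalytic subunit of polymerase α, and Prim2, the large primase subunit, had the smallest changes of the 6 in the triple model. The rise of Pola1 in the triple model was 0.57 ± 0.19 (adjusted p = 0.0196), and it missed the threshold without WT replicate 1, WT replicate 2, triple replicate 2 or triple replicate 3 (adjusted p = 0.0722, 0.0723, 0.078 and 0.0647). Prim2 rose by 0.65 ± 0.23 (adjusted p = 0.03), which missed it without WT replicate 1, triple replicate 2 or triple replicate 3 (adjusted p = 0.113, 0.0891 and 0.051).

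The clamp, its loader and the single-strand binding gene rose in the triple model (6 of 6, median log2 fold change 0.97) and in β-catenin/NRF2 (6 of 6, 0.75). In β-catenin/MET 2 of 6 rose (0.36), and in NRF2/MET 1 rose and 1 fell (0.14). The shares of all tested genes that rose were 26.5, 24.5, 11.0 and 13.5% in this order of models. In NRF2/MET 9.89% of all genes fell, so its counts here were near the shares of all genes. The 2 in β-catenin/MET were Rfc2, whose call was lost in 12 of the 15 fits that left out 1 library (adjusted p up to 0.151, without WT replicate 3), and Rfc4, lost without β-catenin/MET replicate 2 (adjusted p = 0.0782), and DESeq2 called 1. Pcna had 29.5, 26.8 and 27.3 CPM in WT, 57.5, 67.8 and 53.3 in the triple model, 52.0, 52.4 and 47.6 in β-catenin/NRF2, 33.8, 32.9 and 30.2 in β-catenin/MET and 29.6, 27.6 and 37.4 in NRF2/MET. The 6 libraries with both mutant β-catenin and mutant NRF2 lay above the other 9. Pcna rose by 1.10 ± 0.12 (adjusted p = 2.38e-06) in the triple model and 0.87 ± 0.12 (adjusted p = 2.72e-05) in β-catenin/NRF2, and the differences were 0.21 ± 0.12 (adjusted p = 0.235) in β-catenin/MET and 0.18 ± 0.12 (adjusted p = 0.294) in NRF2/MET.

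Rfc5, a subunit of the clamp loader, was the only gene of the 39 that was called higher than WT in some models and lower in another. It had 8.63, 7.0 and 8.595 CPM in WT, 9.57, 13.5 and 11.1 in the triple model, 12.5, 13.0 and 11.8 in β-catenin/NRF2, 10.1, 8.15 and 9.76 in β-catenin/MET and 6.36, 4.66 and 5.73 in NRF2/MET. The NRF2/MET libraries were the lowest of all 15. Rfc5 was higher in β-catenin/NRF2 by 0.62 ± 0.16 (adjusted p = 0.00394). It rose by 0.50 ± 0.16 (adjusted p = 0.0148) in the triple model, which missed the threshold without WT replicate 2 (adjusted p = 0.0654) or triple replicate 2 (0.0888). It fell in NRF2/MET by 0.53 ± 0.16 (adjusted p = 0.03), which missed it without WT replicate 1 (0.0888), WT replicate 3 (0.0812), NRF2/MET replicate 2 (0.117) or its replicate 3 (0.0701).

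Rfc4, another loader subunit, rose in all 4 models, by 1.56 in the triple model and 1.23 ± 0.27 (adjusted p = 0.00427) in NRF2/MET, at levels of only 1.23 ± 0.0710 CPM in WT. It shares 175 exon bases with Eif4a2 on the other strand, and its strand columns summed to 1.35 times the unstranded count, so its level is uncertain. Rfc2 and Rfc3 rose by 0.56 and 0.84 in the triple model, and Rpa2, of the single-strand binding complex, by 1.18 ± 0.19 (adjusted p = 0.000109).

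Lagging-strand genes rose in all 4 models, 2 of 2 in each, against 11.0 to 26.5% of all tested genes. Lig1, the ligase that seals Okazaki fragments, had 2.73, 4.09 and 3.59 CPM in WT, 19.1, 26.8 and 17.2 in the triple model, 20.6, 22.1 and 18.8 in β-catenin/NRF2, 9.13, 8.79 and 7.10 in β-catenin/MET and 6.84, 5.92 and 11.2 in NRF2/MET. All 12 model libraries lay above WT, with the 6 of the triple and β-catenin/NRF2 models on top. The rises were 2.59 ± 0.24 (adjusted p = 5.94e-07), 2.55 ± 0.24 (adjusted p = 7.08e-07), 1.25 ± 0.25 (adjusted p = 0.00291) and 1.20 ± 0.25 (adjusted p = 0.00296) in that order of models. Fen1, the flap nuclease of the same step, rose by 1.78 ± 0.16 (adjusted p = 4.33e-07) in the triple model. Its rise in β-catenin/MET, 0.52 ± 0.17 (adjusted p = 0.0455), was lost in 11 of the 15 fits that left out 1 library (adjusted p up to 0.181, without WT replicate 2). Its rise in NRF2/MET, 0.58 ± 0.17 (adjusted p = 0.0209), was lost without WT replicate 2 (adjusted p = 0.0898) or NRF2/MET replicate 3 (0.0756).

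Nucleotide supply divided into 3 genes that rose and Tk1. Of its 4 genes, 3 rose in the triple, β-catenin/NRF2 and β-catenin/MET models and 2 in NRF2/MET. Of all tested genes, 26.5, 24.5, 11.0 and 13.5% rose in that order of models. In β-catenin/NRF2 and NRF2/MET 1 of the 4 fell, against 24.2% and 9.89% of all genes. Rrm2, the regulated subunit of ribonucleotide reductase, had 4.82, 4.27 and 6.35 CPM in WT, 33.1, 42.3 and 30.2 in the triple model, 29.0, 29.4 and 28.5 in β-catenin/NRF2, 13.1, 15.02 and 12.3 in β-catenin/MET and 10.6, 10.3 and 16.4 in NRF2/MET. The model libraries did not overlap WT. Rrm2 rose by 2.77 ± 0.20 (adjusted p = 3.68e-08), 2.49 ± 0.20 (adjusted p = 9.44e-08), 1.39 ± 0.20 (adjusted p = 0.00021) and 1.27 ± 0.20 (adjusted p = 0.000329) in these models. Its partner Rrm1 rose by 1.24 ± 0.13 (adjusted p = 1.58e-06) in the triple model. Per kilobase, Rrm2 and Rrm1 were at 2.35 and 2.67 CPM in WT and at 16.1 and 6.33 in the triple model. Tyms, which makes thymidylate, rose by 1.49 ± 0.19 (adjusted p = 1.30e-05) in the triple model. Its rise in NRF2/MET, 0.67 ± 0.19 (adjusted p = 0.0218), missed the threshold without WT replicate 1 (adjusted p = 0.0736), WT replicate 2 (0.0676) or NRF2/MET replicate 3 (0.12).

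Tk1, the thymidine salvage kinase, was not higher than WT in any model. It had 45.01, 33.0 and 36.5 CPM in WT, 21.9, 35.4 and 30.6 in the triple model, 17.6, 26.1 and 26.2 in β-catenin/NRF2, 42.2, 49.96 and 37.0 in β-catenin/MET and 27.3, 20.8 and 27.6 in NRF2/MET. The libraries of β-catenin/NRF2 and NRF2/MET lay below WT, and those of the triple model and β-catenin/MET overlapped it. Tk1 fell by 0.71 ± 0.20 in β-catenin/NRF2 (adjusted p = 0.00834), and the difference in the triple model was -0.38 ± 0.20 (adjusted p = 0.124). The fall of 0.59 ± 0.20 in NRF2/MET (adjusted p = 0.0427) missed the threshold in 7 of the fits that left out 1 library, with adjusted p from 0.0537 without triple replicate 3 to 0.157 without WT replicate 1. The exons of Tk1 share 83 bases with Afmid on the other strand. Afmid, an enzyme of tryptophan breakdown, had 123 ± 42.2 CPM in WT, 44.2 ± 12.2 in the triple model and 45.02 ± 14.1 in β-catenin/NRF2, against 118.4 ± 19.6 and 110.6 ± 12.7 in β-catenin/MET and NRF2/MET. With a single strand column, the adjusted p of Tk1 was 0.0196 in the triple model, 0.000768 in β-catenin/NRF2 and 0.22 in NRF2/MET, all 3 with lower values than WT, and reads of the 2 genes cannot be told apart where they overlap.

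The E2F factors and cyclin E, which drive entry into S phase, rose in the triple model (4 of 4, median log2 fold change 1.30). E2f1 had 3.88, 3.56 and 5.13 CPM in WT, 7.73, 12.2 and 9.93 in the triple model, 13.0, 16.5 and 14.6 in β-catenin/NRF2, 7.48, 5.88 and 7.26 in β-catenin/MET and 7.19, 6.79 and 7.22 in NRF2/MET. All model libraries lay above WT, and β-catenin/NRF2 lay above the rest. E2f1 rose by 1.81 ± 0.19 (adjusted p = 1.58e-06) in β-catenin/NRF2, 1.25 ± 0.19 (adjusted p = 5.54e-05) in the triple model and 0.75 ± 0.19 (adjusted p = 0.0104) in NRF2/MET. The rise in β-catenin/MET, 0.72 ± 0.19 (adjusted p = 0.0172), missed the threshold without WT replicate 1 (adjusted p = 0.0581), WT replicate 2 (0.0767) or β-catenin/MET replicate 1 (0.0713). E2f2 rose by 1.35 ± 0.27 (adjusted p = 0.000626) in the triple model, with a difference of -0.05 ± 0.29 (adjusted p = 0.913) in NRF2/MET.

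Ccne1, which encodes cyclin E1, had 3.88, 4.15 and 2.37 CPM in WT, 11.1, 10.1 and 8.98 in β-catenin/MET, 5.33, 8.22 and 7.35 in the triple model, 5.17, 7.79 and 7.06 in β-catenin/NRF2 and 6.78, 5.72 and 7.28 in NRF2/MET. The β-catenin/MET libraries were the highest of all, and the other 3 models overlapped each other. Ccne1 rose by 1.53 ± 0.23 (adjusted p = 0.000296) in β-catenin/MET and by 1.00, 0.94 and 0.93 in the others. Ccne2, for cyclin E2, rose by 1.35 ± 0.32 (adjusted p = 0.00272) in the triple model. Its exons overlap Ints8 on the other strand and its strand columns summed to 4.44 times the unstranded count, so its level is uncertain.

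Chromatin genes had the largest median of the roles, 2.89 in the triple model with 3 of 3 higher and 3.43 in β-catenin/NRF2 (3 of 3). In these models 26.5% and 24.5% of all tested genes were higher. Uhrf1, which carries DNA methylation through replication, had 0.791, 1.42 and 1.28 CPM in WT, 18.1, 24.1 and 16.7 in the triple model, 15.2, 18.2 and 14.2 in β-catenin/NRF2, 12.3, 11.6 and 7.10 in β-catenin/MET and 3.60, 1.996 and 6.53 in NRF2/MET. All model libraries lay above WT, and those of NRF2/MET were the lowest of the models. Uhrf1 rose by 4.05 ± 0.38 (adjusted p = 1.27e-06) in the triple model, 3.74 ± 0.38 (adjusted p = 2.91e-06) in β-catenin/NRF2, 3.12 ± 0.39 (adjusted p = 9.26e-05) in β-catenin/MET and 1.78 ± 0.41 (adjusted p = 0.00685) in NRF2/MET.

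Chaf1a, the large subunit of the factor that places histones on new DNA, had 2.08, 2.02 and 1.80 CPM in WT, 13.6, 16.7 and 13.7 in the triple model, 17.1, 25.4 and 21.4 in β-catenin/NRF2, 6.07, 6.02 and 6.26 in β-catenin/MET and 4.54, 3.39 and 5.33 in NRF2/MET. The 5 groups did not overlap, with β-catenin/NRF2 the highest. Chaf1a rose by 3.43 ± 0.19 (adjusted p = 4.01e-09) in β-catenin/NRF2, 2.89 ± 0.19 (adjusted p = 2.20e-08) in the triple model and 1.17 ± 0.21 (adjusted p = 0.00088) in NRF2/MET. Its partner Chaf1b rose by 1.78, 1.83 and 1.24 in the triple, β-catenin/NRF2 and β-catenin/MET models, and its difference in NRF2/MET was 0.72 ± 0.28 (adjusted p = 0.0698).

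The models were then compared directly, group against group. The groups also differed in unmapped reads and hepatocyte marker levels, so a difference cannot be assigned to an introduced gene. The triple model was higher than NRF2/MET, which lacks mutant β-catenin, in 31 of 39 genes and lower in 1 (median log2 fold change 0.94). Among all tested genes 16.4% were higher and 14.3% lower. Gins2 differed by 2.79 ± 0.29 (adjusted p = 5.48e-06), Orc1 by 2.84 ± 0.61 (adjusted p = 0.00258) and Uhrf1 by 2.27 ± 0.32 (adjusted p = 0.000151), and the gene lower was Mcm10. Gins2 and Orc1 would not have passed the filter on low counts in WT alone. In NRF2/MET, Orc1 was the lowest of the 39 genes per length, at 0.0521 CPM per kb, so its difference rests on few reads. Of the 6 primase and polymerase genes 4 were higher, and of the 10 licensing genes 9.

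Compared with β-catenin/MET, which lacks mutant NRF2, the triple model was higher in 24 genes and lower in 2 (median 0.72), against 18.4% and 15.4%. Gins2 (1.97 ± 0.28, adjusted p = 7.70e-05), Rrm2 (1.39 ± 0.18, adjusted p = 3.92e-05), Chaf1a (1.26 ± 0.17, adjusted p = 6.14e-05), Pcna (0.88 ± 0.12, adjusted p = 5.02e-05) and Fen1 (1.27 ± 0.16, adjusted p = 2.66e-05) had the 5 smallest p-values. The genes lower were Mcm10 and Tk1, and Tk1 (-0.55 ± 0.20, adjusted p = 0.0416) missed the threshold without triple replicate 1 (adjusted p = 0.167), triple replicate 3 (0.0707), β-catenin/MET replicate 1 (0.0771) or its replicate 2 (0.16). Total-count scaling, which moved the median of all genes by 0.26, gave 33 higher and 1 lower here.

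Few of these genes differed between the triple model and β-catenin/NRF2, which lacks hMET. Of the 39, 1 was higher in the triple model and 3 were lower (median 0.16), against 13.1% and 11.8% of all tested genes. Ccne2 was higher by 0.98 ± 0.31 (adjusted p = 0.03), and Mcm10 (-1.27 ± 0.38, adjusted p = 0.0304), Chaf1a (-0.54 ± 0.16, adjusted p = 0.0226) and E2f1 (-0.56 ± 0.17, adjusted p = 0.026) were lower. None of these 4 calls held in every fit that left out 1 library. The count was 0 without triple replicate 1, β-catenin/NRF2 replicate 2 or its replicate 3, and 1 without triple replicate 3. The standard errors of the 39 differences were 0.11 to 0.47, so small differences could not be told from 0.

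The double models differed from each other as well. β-catenin/NRF2 was higher than NRF2/MET in 30 genes and lower in 0 (median 0.98), against 18.3% and 18.9%. No gene was lower at an unadjusted p under 0.05 or by DESeq2. Compared with β-catenin/MET it was higher in 19 and lower in 2 (median 0.57), against 17.9% and 17.2%, and the lower genes were Tk1 (-0.89 ± 0.20, adjusted p = 0.00299) and Ccne1 (-0.59 ± 0.21, adjusted p = 0.0416). The call of Ccne1 was lost without β-catenin/MET replicate 1 or 2, β-catenin/NRF2 replicate 1 or 3 or NRF2/MET replicate 1 (adjusted p = 0.132, 0.0911, 0.163, 0.0677 and 0.0523).

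β-catenin/MET was higher than NRF2/MET in 7 genes and lower in 0 (median 0.38), against 6.96% and 7.36%. At an unadjusted p under 0.05 these counts were 17 and 0, and DESeq2 called 7 and 0. The 7 were Mcm7, Cdc45, Pole, Rfc5, Tk1, E2f2 and Uhrf1, and Pole (0.93 ± 0.20, adjusted p = 0.00455) and Rfc5 (0.74 ± 0.16, adjusted p = 0.00591) kept the call whichever library was left out. The count was 3 without β-catenin/MET replicate 1, β-catenin/MET replicate 2 or NRF2/MET replicate 2.

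Beyond the 39 genes, a list of 61 other replication genes had smaller medians. In the triple model 36 rose and 4 fell (median log2 fold change 0.47), in β-catenin/NRF2 34 and 5 (0.56), in β-catenin/MET 17 and 2 (0.23) and in NRF2/MET 10 and 3 (0.17). Of all tested genes, 26.5, 24.5, 11.0 and 13.5% rose in these models in that order, and 23.4, 24.2, 6.22 and 9.89% fell. The 10 genes that rose in NRF2/MET were thus near the share of all genes. Ccna2, for the S-phase cyclin A2, rose by 3.99 ± 0.27 (adjusted p = 2.83e-08) in the triple model, from 1.06 ± 0.0442 to 17.0 ± 3.09 CPM. Dbf4, the activator of the Cdc7 kinase, rose by 2.40 ± 0.20 (adjusted p = 1.61e-07), Asf1b, a histone chaperone, by 3.46 ± 0.31 (adjusted p = 4.33e-07), and Topbp1, a scaffold of helicase activation, by 1.16 ± 0.13 (adjusted p = 3.90e-06). Gmnn, the inhibitor of Cdt1, rose by 0.77 ± 0.18 (adjusted p = 0.00222), and the difference of Rb1, the E2F-binding restraint, was -0.10 ± 0.17 (adjusted p = 0.667).

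E2f8 and E2f7, which repress E2F targets, fell in the triple and β-catenin/NRF2 models. E2f8 had 24.4, 45.5 and 20.5 CPM in WT, 6.503, 5.96 and 6.32 in the triple model, 5.36, 5.17 and 6.89 in β-catenin/NRF2, 13.2, 15.7 and 21.5 in β-catenin/MET and 21.2, 21.9 and 11.2 in NRF2/MET. The libraries of the triple and β-catenin/NRF2 models lay below the other 9. E2f8 fell by 2.27 ± 0.32 in the triple model (adjusted p = 5.41e-05) and by 2.38 ± 0.32 in β-catenin/NRF2 (adjusted p = 4.46e-05). E2f7 differed by -1.35 ± 0.43 (adjusted p = 0.0157) in the triple model, -1.76 ± 0.45 (adjusted p = 0.0137) in β-catenin/MET and -1.63 ± 0.44 (adjusted p = 0.006) in β-catenin/NRF2, at 4.24 ± 2.79 CPM in WT. Of ribonucleotide reductase, the p53-inducible subunit gene Rrm2b rose by 0.77 ± 0.24 (adjusted p = 0.0311) in NRF2/MET and 0.70 ± 0.24 (adjusted p = 0.025) in β-catenin/NRF2, and its difference in the triple model was 0.38 ± 0.24 (adjusted p = 0.203).

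Mitosis genes, a list of 20 that act after replication, gave a further comparison. All 20 rose in the triple model (median 3.57), in β-catenin/NRF2 (3.31) and in β-catenin/MET (1.99), but 4 of 20 in NRF2/MET (0.56), where 6 were higher at an unadjusted p under 0.05. The shares of all tested genes that rose were 26.5, 24.5, 11.0 and 13.5% in that order. The NRF2/MET count came nearest to its share. The 20 genes summed to 34.9, 33.2 and 27.5 CPM in WT, 45.3, 35.1 and 60.4 in NRF2/MET, 123, 106.2 and 162 in β-catenin/MET, 309, 365.0 and 299.5 in β-catenin/NRF2 and 346, 477 and 352 in the triple model. The 38 replication genes without Mcm10 summed to 229, 228 and 232 CPM in WT, 286, 249 and 331 in NRF2/MET, 405, 373 and 334 in β-catenin/MET, 507, 602 and 545 in β-catenin/NRF2 and 532, 708 and 549 in the triple model. With Mcm10 included, the 39 genes summed to 419.9 ± 29.8 CPM in WT, 382.6 ± 62.1 in NRF2/MET, 475.8 ± 22.1 in β-catenin/MET, 629.4 ± 56.2 in β-catenin/NRF2 and 628.7 ± 102.5 in the triple model. The mean of NRF2/MET was thus above WT without Mcm10 and below it with Mcm10, and in both cases the triple and β-catenin/NRF2 libraries lay above all WT libraries.

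Between β-catenin/MET and NRF2/MET, 17 of 20 mitosis genes were higher (median 1.40), against 7 of 39 replication genes (median 0.38) and 6.96% of all tested genes. Mki67, the proliferation marker, had 25.3, 19.4 and 32.2 CPM in β-catenin/MET and 6.78, 5.32 and 8.36 in NRF2/MET, a difference of 1.91 ± 0.21 (adjusted p = 2.36e-05), and Top2a differed by 1.03 ± 0.20 (adjusted p = 0.00236). In the same comparison Mcm2 differed by 0.48 ± 0.23 (adjusted p = 0.184) and Rrm2 by 0.11 ± 0.18 (adjusted p = 0.734). Replicate 3 of β-catenin/MET had the highest mitosis sum of that group and the lowest replication sum. Whether the 2 lists differ in their response was not tested.

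**Figure D5:**
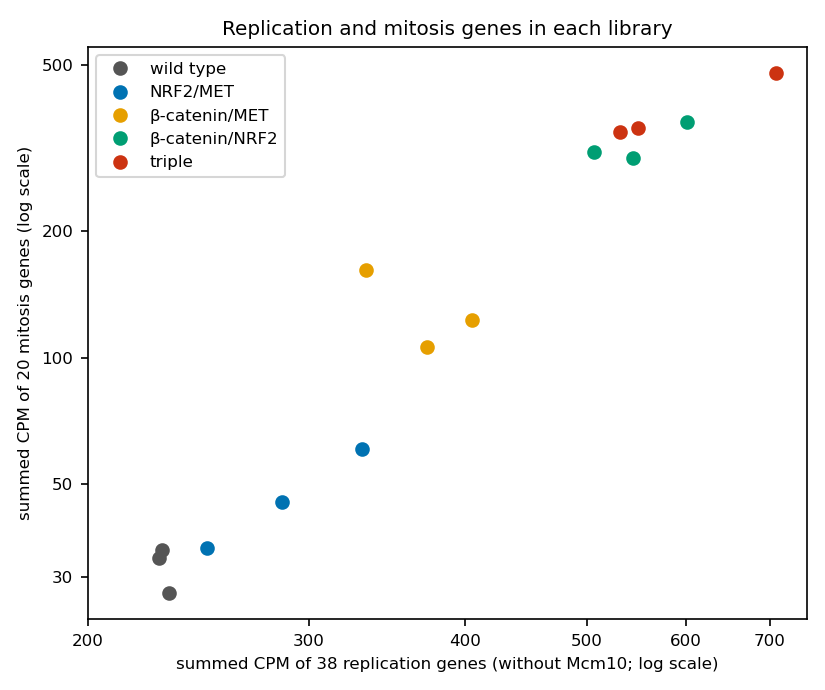
Each point is 1 library: summed CPM of the 38 replication genes without Mcm10 against summed CPM of the 20 mitosis genes, both on log axes, coloured by group. The wild-type libraries lie at 228 to 232 and 27.5 to 34.9 CPM, NRF2/MET reaches 331 and 60.4, and the triple and β-catenin/NRF2 libraries start at 507 and 299.5.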

How the data were processed

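PolyA RNA from 15 mouse liver libraries was compared in 5 groups of 3. The deposited files hold raw read counts per gene with unstranded and strand-specific columns. Reads were handled with Trimmomatic and STAR on mm10, per the submitters' processing notes, but which versions were used, and which gene annotation, is not given in the sources used here. The unstranded counts were used. They summed to 14084343 to 20702618 per library, and rows for unmapped, multimapping, unassigned and ambiguous reads were left out of totals. The strand columns held equal shares, so reads of genes that overlap on opposite strands cannot be told apart.

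Counts were fitted with edgeR 4.0.16 in R 4.3.3 (TMM scaling, filterByExpr by group, robust quasi-likelihood test, 1 coefficient per group over all 15 libraries), with 10 contrasts and Benjamini-Hochberg adjustment over 14098 genes at 0.05. The fit was tested on simulated counts. Alternatives were DESeq2 1.42.0, RLE size factors, total-count scaling, no low-count filter, only the libraries of a contrast, 1 strand column, a term for or removal of the 3 libraries whose file names are marked ADDED (replicate 3 of WT, of the triple model and of β-catenin/MET), and each library left out. Replicate numbers were given in accession order and only name libraries. The genes and lists were chosen with earlier results of these data known. Text names all 39 genes, and of the other lists up to 4 genes with the smallest p per contrast plus E2f7, E2f8, Gmnn, Mki67, Top2a, Ccna2, Rrm2b and Rb1. Exon lengths came from GENCODE on GRCm38 and promoter windows from RefSeq.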

Additional observations from a re-analysis of the deposited data

Results flagged for a closer look

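Rfc5, a subunit of the clamp loader, was higher than WT in β-catenin/NRF2 and lower in NRF2/MET, and the test of the difference between these models gave a log2 difference of 1.15 (edgeR, adjusted p = 5.3e-05). The fall against WT missed the threshold without WT replicate 1, WT replicate 3, NRF2/MET replicate 2 or its replicate 3 (edgeR, adjusted p 0.0701 to 0.117). The triple model was also above NRF2/MET, by 1.03 (adjusted p = 0.00021), and β-catenin/MET by 0.74 (adjusted p = 0.0059). All 9 libraries with mutant β-catenin lay above the 3 NRF2/MET libraries.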

How the results depend on the processing

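No member reversed direction among its called values under the alternatives run. Leaving out 1 library at a time, the number of the 39 genes called ranged from 34 to 38 for the triple model against WT, 14 to 26 for β-catenin/MET, 34 to 36 for β-catenin/NRF2 and 13 to 19 for NRF2/MET. It ranged from 28 to 32 for the triple model against NRF2/MET, 19 to 28 against β-catenin/MET and 0 to 5 against β-catenin/NRF2. It ranged from 15 to 24 for β-catenin/NRF2 against β-catenin/MET, 25 to 31 against NRF2/MET and 3 to 8 for β-catenin/MET against NRF2/MET. Without the libraries marked ADDED (replicate 3 of WT, of the triple model and of β-catenin/MET), 1 gene was called between the triple and β-catenin/NRF2 models, and with 1 strand column 3 were called between β-catenin/MET and NRF2/MET. The cause was not tested. Between the triple model and NRF2/MET the median log2 fold change of all genes was 0.375 with total-count scaling and 0.0112 with TMM. Cdc6, Orc1, Gins2 and Ccne2, with 14, 7, 29 and 36 counts over the WT libraries, are limited by depth. No paired analysis was possible because the replicate numbers follow accession order only, and the ADDED mark, which is shared by 3 groups and was fitted as a term, does not match libraries one to one across all groups.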
